A study of Mus musculus with 2 samples.

Results

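The Mir99, Mir100 and Mir125 genes stand in 3 short chromosomal clusters, each of which also holds a let-7 gene. Their levels were read from small RNA libraries of the mouse adrenal gland. The group was defined by gene name in the annotation and holds 6 of the 2202 miRNA genes counted, namely Mir99a, Mir99b, Mir100, Mir125a, Mir125b-1 and Mir125b-2. The libraries were made from total RNA of C57BL/6J mice, an inbred strain, with inserts below 30 nt per the labels. The series has 1 group with 2 biological replicates, called wild type and male in a free-text label, although sex was not collected according to its own field. Age and stage are unknown. The replicates share a donor record, and nothing in the labels says that they are different animals, so their spread can be technical. Levels are given in CPM (counts scaled to 1e6 sense-strand counts at miRNA genes) or as a percent of the sense-strand counts.

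A miRNA is cut from a hairpin precursor and guides silencing of messenger RNAs that pair with its seed, bases 2 to 8 from the 5′ end. The miR-99 and miR-100 miRNAs are known to repress genes of the mTOR and insulin-like growth factor pathway. The miR-125 miRNAs are the mammalian relatives of worm lin-4 and repress Lin28, whose protein in turn blocks maturation of let-7. In steroid-producing cells, miR-125a has been described as a repressor of the HDL receptor gene Scarb1.

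The leading (5p) mature sequences of the members fall into 2 seed groups, and they are shown because their near identity decides which reads can be given to a single gene. Sequences are from RefSeq (GRCm38.p6), written 5′ to 3′, with the seed in capitals.
miR-99a-5p: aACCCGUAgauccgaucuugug
miR-100-5p: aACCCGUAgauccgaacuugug
miR-99b-5p: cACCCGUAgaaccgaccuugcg
miR-125a-5p: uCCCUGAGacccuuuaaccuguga
miR-125b-5p: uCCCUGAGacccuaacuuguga

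Mir99a, Mir100 and Mir99b share the seed ACCCGUA, and no other miRNA of the RefSeq table has it. With positions counted from 1 at the 5′ end, miR-99a-5p and miR-100-5p differ by 1 substitution, U16A, and share their first 15 bases. miR-99a-5p and miR-99b-5p differ by A1C, U11A, U16C and U21C. The seed CCCUGAG is common to Mir125a, Mir125b-1 and Mir125b-2. The same seed occurs in the RefSeq mature miRNAs of Mir351, Mir6367 and Mir6394.

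Mir125b-1 and Mir125b-2 encode the same 22-nt miR-125b-5p, so a read of that whole sequence cannot be given to either gene. The opposite (3p) arms of these hairpins differ from each other and are shown for that reason.
miR-125b-1-3p: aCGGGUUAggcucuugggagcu
miR-125b-2-3p: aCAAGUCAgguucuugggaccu

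None of the mature sequences of Mir99a, Mir100, Mir99b and Mir125a was found whole in another gene of the table. The precursors below show where the arms lie, with both mature arms in capitals.
Mir99a hairpin: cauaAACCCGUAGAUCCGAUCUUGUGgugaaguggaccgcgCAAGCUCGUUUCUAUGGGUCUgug
Mir100 hairpin: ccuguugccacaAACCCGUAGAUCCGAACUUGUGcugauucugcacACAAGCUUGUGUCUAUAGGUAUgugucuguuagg
Mir125a hairpin: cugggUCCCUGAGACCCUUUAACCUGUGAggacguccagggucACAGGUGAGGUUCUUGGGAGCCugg
Mir125b-1 hairpin: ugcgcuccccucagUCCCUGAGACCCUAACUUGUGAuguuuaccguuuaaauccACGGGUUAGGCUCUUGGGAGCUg

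The tables hold 1 count per hairpin gene, so the 5p and 3p arms are not separated in any value. The hairpins of Mir99b and Mir125b-2 are named only. Mature 5p lengths of the members are 22 or 24 nt, so counts were not divided by length. Whether reads span whole mature miRNAs cannot be seen from the counts.

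On mm10 with the GENCODE M21 annotation, all cluster genes lie on the plus strand. Mir99a (ENSMUSG00000065530.1, chromosome 16 from 77598936 to 77599000) and Mir125b-2 (ENSMUSG00000065472.1, chromosome 16 from 77646273 to 77646343) lie in introns of the noncoding host gene Mir99ahg, with Mirlet7c-1 between them. Mir125b-2 also overlaps an exon of C130023A14Rik, an annotated transcript still to be experimentally checked. Mir100 (ENSMUSG00000093011.1, chromosome 9 from 41531425 to 41531504) and Mir125b-1 (ENSMUSG00000093354.1, chromosome 9 from 41581926 to 41582002) lie in introns of the noncoding genes 3110039I08Rik and Gm49317, with Mirlet7a-2 between them. Mir125b-1 also overlaps an exon of the sense intronic gene Gm28119, and Mir100 lies opposite an exon of Gm48742. Mir99b (ENSMUSG00000065396.1, chromosome 17 from 17830188 to 17830257) lies in an intron of the protein-coding gene Spaca6, and Mir125a (ENSMUSG00000065479.2, chromosome 17 from 17830812 to 17830879) overlaps an exon of it. Mirlet7e stands between them. The 3 genes span 47408 bases on chromosome 16, 50578 bases on chromosome 9 and 692 bases on chromosome 17.

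The libraries differed in depth. Replicate 1 had 10263894 counts assigned to miRNA genes and replicate 2 had 3525666. Unmapped reads made up 13.8% and 41.4% of all reads, while multimapping reads made up 37.8% and 38.8% of mapped reads. Among marker miRNAs of other cell types, the 3 erythroid genes summed to 8370.1 CPM in replicate 1 and to 1814 CPM in replicate 2, with 2 of 3 detected. Of the other 8 marker lists, the 4 neuroendocrine genes summed to 73420.4 and 80086 CPM, Mir126a of endothelium had 89916 and 95595 CPM, and the 4 smooth muscle and fibroblast genes summed to 26239 and 27512 CPM. The 4 leukocyte genes summed to 1476 and 1592 CPM. Similar sums can hide opposite shifts of single genes. Of the leukocyte genes, Mir142 had 314 and 434 CPM and Mir150 had 136 and 264 CPM, and Mir223 was also higher in replicate 2. Only Mir146 of this list was lower there, with 967 and 716 CPM. The liver marker Mir122 had 104 and 97.6 CPM, the 3 kidney and gut genes summed to 73.7 and 83.1 CPM and the 4 epithelial genes to 44.7 and 38.6 CPM, and the 4 skeletal and cardiac muscle genes, none of them detected, summed to 4.87 and 7.37 CPM. No marker list had a gene at 0 in both replicates. Whether cell makeup or the unmapped share plays a part in the replicate differences below was not tested. The tables hold miRNA genes only, so messenger RNA markers of adrenal cells cannot be checked, and a change in the number of cells of a type cannot be told apart from a change in miRNA per cell.

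The 6 genes together took 6.08% ± 1.44 of assigned counts (SD, n = 2). Their sum was 5.06% in replicate 1, with a Wilson 95% interval from 5.05% to 5.07%, and 7.10% in replicate 2, with an interval from 7.07% to 7.13%. Intervals cover counting error only. The replicates lay much farther apart than those intervals. Each of the 6 members reached the detection limit of 10 CPM in both libraries, against 12.1% of all 2202 miRNA genes. The 3 genes with the miR-99 seed carried most of the sum, with 5.45% ± 1.26 of counts, and the 3 Mir125 genes took 0.631% ± 0.179. These sums hold uniquely placed reads only. Whole reads of miR-125b-5p match both Mir125b genes and enter neither, so the Mir125 counts are too low by an unknown amount. The denominator leaves out the multimapping reads of all other genes as well, so whether the Mir125 share is too low is not known.

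Mir99a, whose mature miRNA differs from miR-100 by 1 base, had the most uniquely placed reads of the 6 members in both replicates. Its level was 32560.4 CPM in replicate 1 and 47509 CPM in replicate 2, with a mean of 40035 ± 10570.2 CPM (SD, n = 2). Mir99a alone made up 64.4% and 66.9% of the counts of the 6 genes, and ranked 9th and 8th among all miRNA genes. Its nearest gene in level over both replicates was Mir23b, with 42667 and 48286 CPM, by the summed absolute difference in log2(CPM + 1), which was 0.41.

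Mir99b, the Spaca6 member of the seed group, stood next. Its level was 9155 CPM in replicate 1 and 10468 CPM in replicate 2, with a mean of 9811 ± 929 CPM (SD, n = 2). For Mir100, replicate 1 gave 3833 CPM and replicate 2 gave 5444 CPM, with a mean of 4638 ± 1139 CPM (SD, n = 2). Within this seed group the order Mir99a, Mir99b, Mir100 held in both replicates, and the replicate values of the 3 genes did not overlap. Mir99a exceeded Mir100 8.50-fold in replicate 1 and 8.73-fold in replicate 2, with exact 95% intervals from 8.41 to 8.59 and from 8.60 to 8.86. The gene nearest in level to Mir99b was Mirlet7e, its own cluster neighbour, and the gene nearest to Mir100 was Mir30e, with 3896 and 4835 CPM.

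Mir125a led the Mir125 genes in uniquely placed reads, which leave out whole reads of miR-125b-5p. Its level was 4509.6 CPM in replicate 1 and 6996 CPM in replicate 2, with a mean of 5753 ± 1758 CPM (SD, n = 2). Replicate 2 was the higher one, and the replicate range overlapped that of Mir100, although Mir125a stood above Mir100 in each library. Its nearest gene in level was Mir21a, with 5213 and 6674 CPM.

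The Mir125b genes stood lowest of the 6. Mir125b-2 stood at 355 CPM in replicate 1 and at 357 CPM in replicate 2, with a mean of 356 ± 2.00 CPM (SD, n = 2). Mir125b-1 stood at 179.6 CPM in replicate 1 and at 219.8 CPM in replicate 2, with a mean of 199.7 ± 28.5 CPM (SD, n = 2). The ranges of these genes did not overlap, and Mir125b-2 exceeded Mir125b-1 1.97-fold and 1.63-fold. These values count reads placed at 1 locus only. Reads that match several loci stand in the multimapping line and enter no gene. The Mir125b genes summed to 0.0534% and 0.0577% of counts. The share of these reads that came from the 3p arms, which belong to 1 gene each, cannot be read from the tables, so the sum gives no level for miR-125b-5p, and the order of the Mir125b genes against the other members holds for uniquely placed reads only. The genes nearest in level were Mir106b for Mir125b-2, with 387 and 333 CPM, and Mir7-2 for Mir125b-1, with 176 and 234 CPM.

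**Figure D1:**
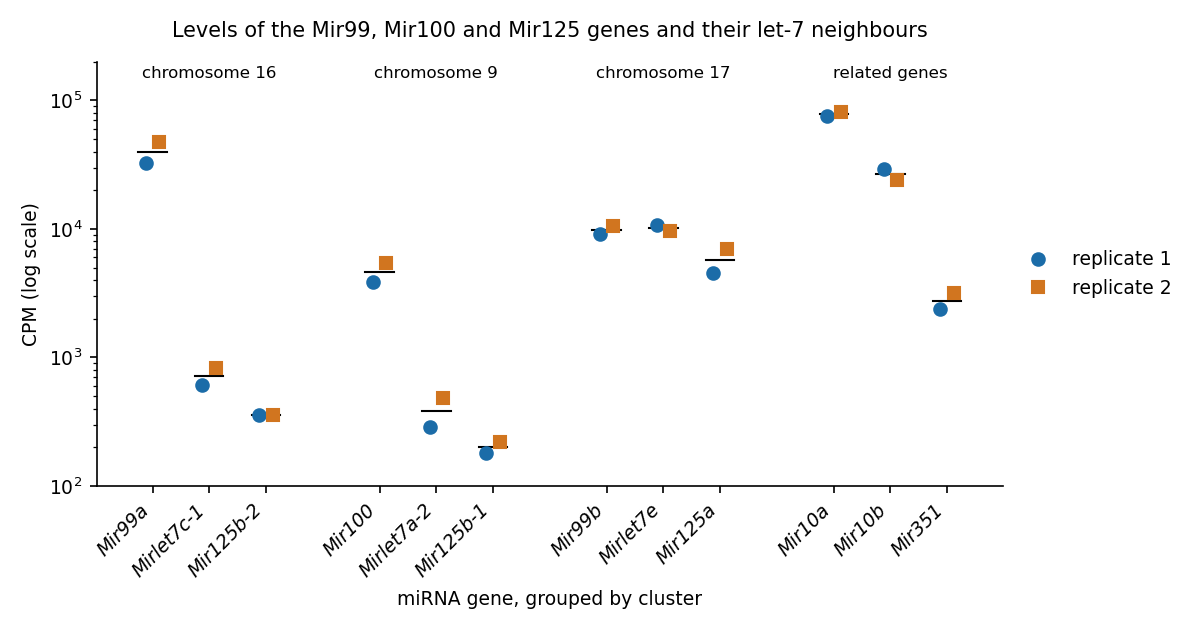
CPM on a log axis for each gene of the 3 clusters and for Mir10a, Mir10b and Mir351, with circles for replicate 1, squares for replicate 2 and a bar at the mean. Mir99a stands highest of the cluster genes at 32560.4 and 47509 CPM, and the chromosome 17 genes lie within a narrow band. The Mir125b genes have the lowest means, in uniquely placed reads.

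Among the 267 miRNA genes detected in both replicates, the members fell into an upper and a lower set. By mean CPM, Mir99a ranked 8th, Mir99b 20th, Mir125a 29th and Mir100 34th, while Mir125b-2 ranked 113th and Mir125b-1 139th. The step from Mir100 to Mir125b-2 was 13.03-fold in mean CPM, and no replicate value of any member lay between 357 and 3833 CPM. The other steps in the order were 4.08-fold from Mir99a to Mir99b, 1.71-fold from Mir99b to Mir125a, 1.24-fold from Mir125a to Mir100 and 1.78-fold from Mir125b-2 to Mir125b-1. Only the neighbours Mir125a and Mir100 had overlapping replicate ranges. Sharing a whole mature sequence with another gene is, by the mature entries listed for each gene, a property of 94 of the 1018 table genes matched in RefSeq. Of these 94, 35 were detected, with a median of 109 CPM, and 3 reached 1000 CPM in both replicates. Of the other 924, 209 were detected, with a median of 282 CPM, and 51 reached 1000 CPM. The Mir125b genes belong to the first set, and the other 4 members belong to the second.

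**Figure D2:**
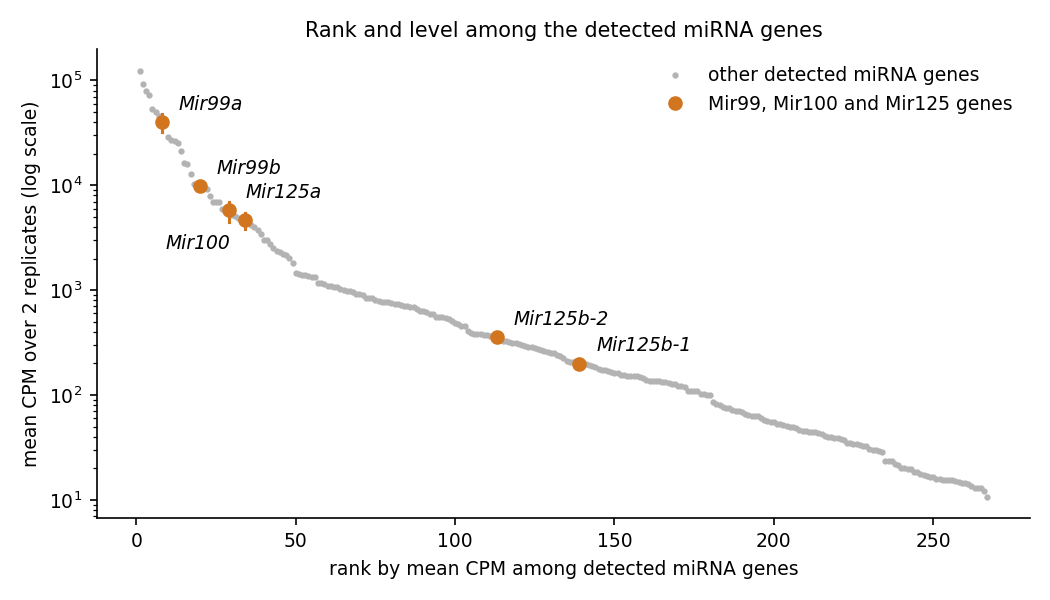
Mean CPM on a log axis against rank for the 267 miRNA genes that reached 10 CPM in both replicates, with the 6 members as orange points and vertical lines joining their replicate values. Mir99a, Mir99b, Mir125a and Mir100 lie within the first 34 ranks, and Mir125b-2 and Mir125b-1 lie at ranks 113 and 139.

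Genes of the same cluster were compared by the ratio of their counts within each library, which does not depend on how the libraries are scaled. In the chromosome 16 cluster, Mir99a exceeded Mir125b-2 91.8-fold in replicate 1 and 133-fold in replicate 2. It exceeded Mirlet7c-1, the let-7 gene 656 bases downstream, 53.3-fold and 56.9-fold. Mirlet7c-1 had 611 and 835 CPM, and its mature let-7c-5p is also encoded by Mirlet7c-2, so it is undercounted in the same way as the Mir125b genes. In the chromosome 9 cluster, Mir100 exceeded Mir125b-1 21.3-fold and 24.8-fold. It exceeded Mirlet7a-2, with 287 and 481 CPM, 13.4-fold and 11.3-fold. The Mirlet7a-2 hairpin holds the whole let-7a-5p listed for Mirlet7a-1, so Mirlet7a-2 is undercounted as well. All ratios of these clusters are therefore ratios of uniquely placed reads, and those of Mir99a and Mir100 to their neighbours can be too high by an unknown amount.

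In uniquely placed reads, the genes of the chromosome 17 cluster lay closest together, and none of its 3 genes shares a whole mature sequence with another gene of the table. Mirlet7e, between the members, stood at 10688 CPM in replicate 1 and at 9676 CPM in replicate 2. Mir99b was at 0.857 of the Mirlet7e counts in replicate 1 and 1.08 in replicate 2, so which of them was higher changed between the replicates. Mir125a was at 0.422 and 0.723 of Mirlet7e, with exact 95% intervals from 0.417 to 0.427 and from 0.711 to 0.735, a shift of 1.71-fold between the replicates. Mir99b exceeded Mir125a 2.03-fold and 1.496-fold. The hairpins of Mir99b and Mirlet7e are 94 bases apart, and 367 bases separate Mirlet7e from Mir125a. Mirlet7e lies opposite another annotated miRNA gene, Gm25927, and had 0 counts in the column without regard to strand, so its ratios rest on the stranded column. The let-7 sequences of these clusters are shown because let-7e-5p has a gene of its own while let-7c-5p does not.
let-7e-5p: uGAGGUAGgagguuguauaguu
let-7c-5p: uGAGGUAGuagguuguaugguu

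Across clusters, the ratio of Mir99a to Mir100 differed 1.03-fold between the replicates, the smallest shift among the 18 ratios computed, and this pair was singled out after its values were seen. All 9 ratios within clusters differed more, from 1.07-fold for Mir99a to Mirlet7c-1 up to 1.71-fold for Mir125a to Mirlet7e. The other ratios of genes not in the same cluster differed from 1.09-fold for Mir125a to Mir100 up to 1.54-fold for Mir125a to Mir125b-2. For none of the 18 ratios, Mir99a to Mir100 included, did the exact 95% intervals of the replicates overlap. The levels summed over the 3 genes of each cluster were 3.35% and 4.87% of counts on chromosome 16, 0.430% and 0.614% on chromosome 9, and 2.44% and 2.71% on chromosome 17. All 3 sums were higher in replicate 2. How well each sequence is captured in a small RNA library enters every ratio of 2 genes and was not tested.

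**Figure D3:**
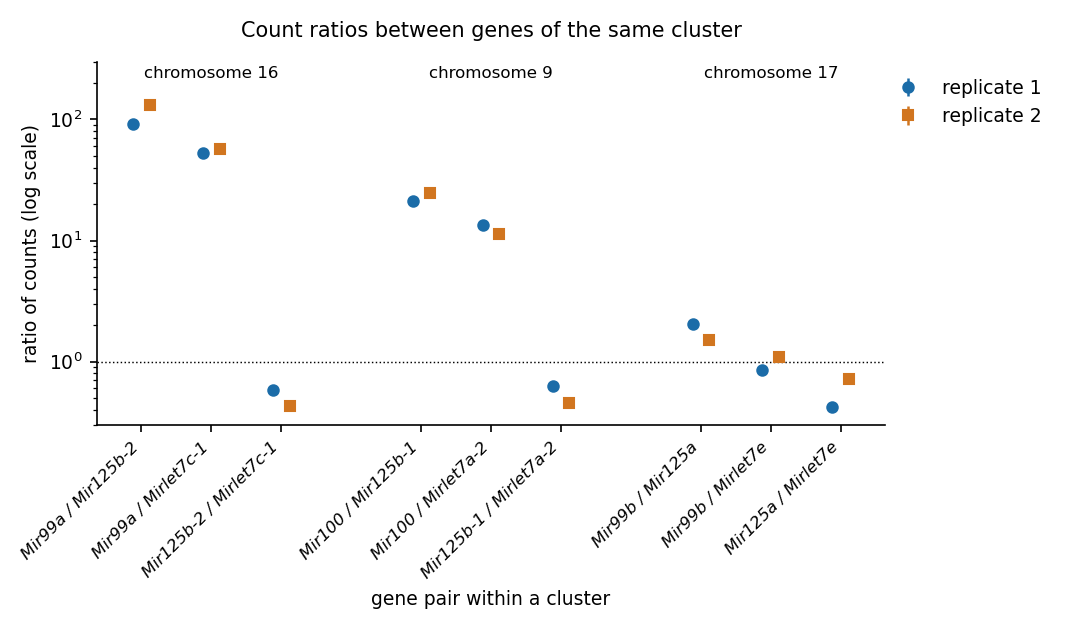
Ratio of counts on a log axis for the 3 gene pairs of each cluster, with circles for replicate 1, squares for replicate 2, exact 95% intervals as vertical lines mostly smaller than the symbols, and a dotted line at equal counts. Ratios reach 91.8 and 133 on chromosome 16, while all ratios on chromosome 17 lie between 0.422 and 2.03.

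The replicates were compared gene by gene with an exact two-sided binomial test on counts, with the expected share from TMM-scaled library sizes. This compares 2 libraries, not conditions. Of 443 genes tested, 52.8% passed at a Benjamini-Hochberg adjusted p of 0.05, with 21.2% higher in replicate 2 and 31.6% higher in replicate 1. Of the 6 members, 5 were higher in replicate 2 and none was higher in replicate 1. The median log2 ratio of replicate 2 over replicate 1 was 0.38 over the members, -0.13 over the detected genes and -0.17 over all tested genes. Members differ from most tested genes in level, with a median of 5195 CPM against 37.2 CPM over all tested genes, so small ratios pass the test more easily. In size, the median member lay 1.30-fold apart between the replicates, the median detected gene 1.31-fold and the median tested gene 1.36-fold.

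Mir125a had the largest ratio of the 6, a log2 ratio of 0.62 with an exact 95% interval from 0.59 to 0.64, or 1.53-fold. Mir99a followed with a log2 ratio of 0.53 (0.52 to 0.54) and Mir100 with 0.49 (0.46 to 0.51). The sister sequences miR-99a and miR-100, from different chromosomes, thus had ratios of 1.44-fold and 1.40-fold. Mir125b-1 had a log2 ratio of 0.27 (0.15 to 0.40), with an adjusted p of 3.08e-05 in the exact binomial test. Mir99b had 0.18 (0.16 to 0.19), or 1.13-fold. Mir125b-2 did not pass, with a log2 ratio of -0.01 (-0.10 to 0.09) and an adjusted p of 0.968 in the exact binomial test. Its log2 ratio was 0.01 with total counts, 0.06 with DESeq2 size factors and 0.07 in the column without strand. With 5 counts added it stayed negative, at -0.0022. Mir125b-2 did not pass under any of these settings.

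The other named genes of the family and clusters went both ways. Of 8 such genes, 6 could be tested, of which 4 were higher in replicate 2 and 2 were higher in replicate 1. Among the let-7 neighbours, Mirlet7a-2 was higher in replicate 2 with a log2 ratio of 0.73 and Mirlet7c-1 with 0.43, while Mirlet7e was lower in replicate 2 at -0.16. Mirlet7e thus differed in the direction opposite to Mir99b and Mir125a, which flank it within 692 bases.

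**Figure D4:**
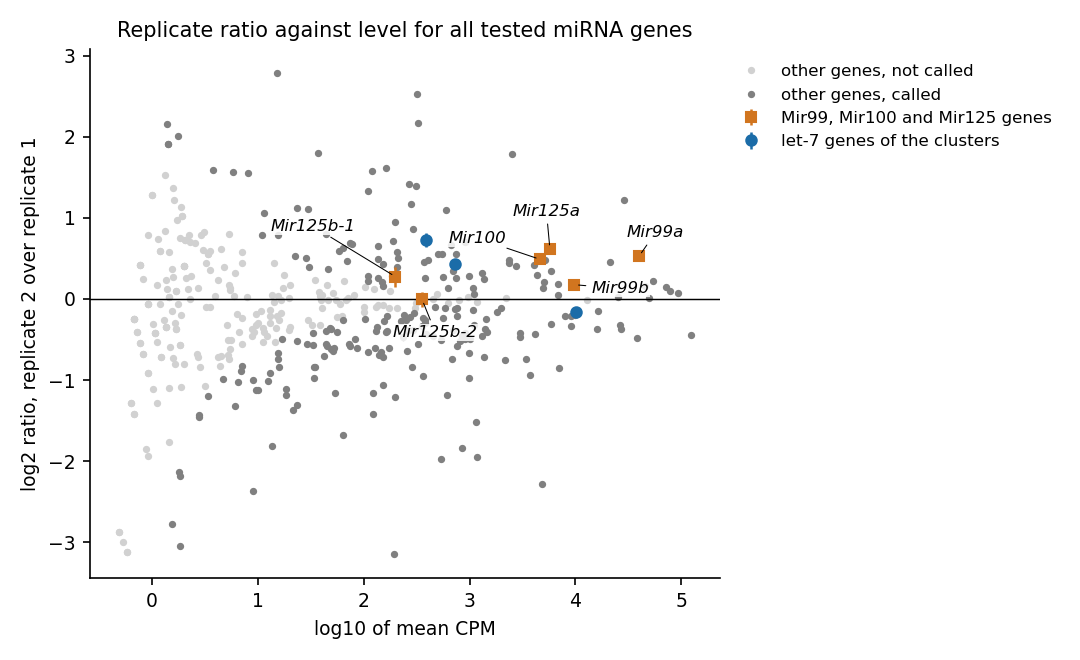
Log2 ratio of replicate 2 over replicate 1 against log10 of mean CPM for the 443 tested miRNA genes, with light dots for genes that did not pass the exact binomial test, dark dots for those that did, squares for the 6 members and circles for the 3 let-7 neighbours, each with exact 95% intervals. The members lie from -0.01 to 0.62 on the log2 scale, and 5 of the 6 lie above 0 by more than their intervals.

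Related sequences outside the clusters gave a point of reference. Mir10a and Mir10b, of the Hox gene regions, encode miRNAs that resemble miR-99 and miR-100 but carry another seed, and they are shown to let the seeds be compared.
miR-10a-5p: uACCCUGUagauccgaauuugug
miR-10b-5p: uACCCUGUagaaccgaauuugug
miR-351-5p: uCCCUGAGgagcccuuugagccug

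Mir10a had 75589.6 and 81568 CPM, which was 2.32-fold and 1.72-fold the level of Mir99a, and Mir10b had 29421 and 23835 CPM. Together Mir10a and Mir10b took 10.5% ± 0.028 of counts (SD, n = 2), compared with 5.45% for the 3 genes with the miR-99 seed. Within the pair the directions differed, with a log2 ratio of 0.09 for Mir10a and -0.32 for Mir10b. Mir351, a gene of the X chromosome whose miRNA carries the miR-125 seed, had 2367 and 3165 CPM, so Mir125a exceeded it 1.91-fold and 2.21-fold. Its log2 ratio was 0.40, in the direction of Mir125a. Mir6367 and Mir6394, which carry the same seed, had 0 counts in both replicates, which allows up to 3 counts of uniquely placed reads, or 0.292 and 0.851 CPM. All 6 genes with the seed CCCUGAG summed to 0.741% and 1.07% of counts, without the reads of miR-125b-5p that match both Mir125b genes.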

How the data were processed

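The authors deposited raw counts per miRNA gene in 1 table per library, with columns without regard to strand, on the strand of the gene and on the opposite strand, as judged from the values. Build mm10 and annotation GENCODE M21 are named in the deposited description files. The names of the aligner and of the counting tool are not given in the sources used. Reads mapping to several places, unmapped reads and reads outside features stand in 4 summary lines, which entered neither library sizes nor tests. Sense-strand counts were scaled to CPM over all miRNA genes. Depths were 10263894 and 3525666 assigned counts.

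For each gene with at least 10 counts over both replicates, an exact two-sided binomial test compared the libraries, with TMM sizes from edgeR 4.0.16 (R 4.3.3), Benjamini-Hochberg adjustment over 443 genes and 0.5 counts added for log2 ratios. The test was tried on counts simulated with counting error only, which does not check it against further spread between libraries. Alternatives were DESeq2 1.42.0 size factors, total counts, other count minimums, other denominators, the column without strand, and each replicate left out. Other calculations used Python 3.11.15, scipy 1.17.1 and pandas 2.3.3. RefSeq mature sequences matched all 6 members by symbol, and hairpins matched 4.

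The text names the members, the let-7 gene of each cluster, Mir10a, Mir10b, every gene that shares a member's 5p seed, the host genes, and the non-member nearest to each member in level. Members and lists were chosen with earlier results of these data known.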

Additional observations from a re-analysis of the deposited data

How the results depend on the processing

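With all mapped reads as the denominator, multimapping reads included, the combined share of the 6 members was 3.47% in place of 6.08%. That denominator is larger by construction. The combined share stayed within 1 SD with uniquely mapped reads as the denominator, with TMM and DESeq2 scaling and in the column without strand. It ran from 5.64% to 6.94% under these settings. All of them changed only the denominator, since the members had the same counts in the column without strand. TMM and DESeq2 sizes were centred on the same overall depth, so they could hardly move the mean share. The SD of 2 replicates is also a wide limit, so staying within it is a weak check. With 1 replicate left out, the share was that of the other replicate, 5.06% or 7.10%. With 2 replicates such a value always lies within 1 SD of the mean, so leaving 1 out could not test the share. Single members moved by more than 1 SD under further settings. Mir125b-2 went from 0.0356% to 0.0330% with uniquely mapped reads and to 0.0406% in the column without strand. Mir99b went from 0.981% to 1.12% in the column without strand. Each member also moved with all mapped reads as the denominator. All 6 members were detected at minimums of 1 and 100 CPM, and 5 passed the replicate test under each scaling and count minimum tried. Over all genes, between 206 and 234 passed. No paired analysis was possible because the series has 1 group. Sequences shared between loci limit the values of the Mir125b genes, Mirlet7c-1 and Mirlet7a-2, whatever the depth. Counting error was smaller than the spread between replicates for the members other than Mir125b-2. The labels do not show that the replicates are different animals, so the spread between animals was not measured.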
